A study of Ovis aries with 18 samples.

Results

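PDK4 encodes pyruvate dehydrogenase kinase 4, and it was represented by 16 of the 24355 SNPs, and by 1 of the 5810 genes, for which allele counts were deposited from the perirenal adipose tissue (PRAT) of sheep fetuses. Pyruvate dehydrogenase kinases phosphorylate the pyruvate dehydrogenase (PDH) complex in mitochondria and switch it off, so that pyruvate from glucose is spared and fatty acids are oxidised instead. PDK4 is the member of this kinase family best known for its response to fasting, glucocorticoids and fatty acids, through PPAR, FOXO and glucocorticoid receptor signalling, and insulin represses it. The fetal perirenal depot is a thermogenic fat store that prepares the lamb for birth.

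PRAT came from 18 singleton pure bred merino fetuses, 16 female and 2 male (RS903 and RS918), at 132 days of gestation. All were wild type and untreated, the ewes were fed to maintenance, the ewes were unrelated to each other and the fetuses had the same sire. They form 1 condition with 18 samples, so the comparisons here are between the 2 alleles within an animal, between SNPs of the gene and between genotypes. Each row of the count table gives the reads with the reference and with the alternate base in every animal, with a genotype call made from the same reads, where 0/0, 0/1 and 1/1 stand for reference homozygote, heterozygote and alternate homozygote. Reads counted over all SNPs totalled 2970824 to 5334585 per animal. One animal labelled female, RS929, was heterozygous at 29.1% of 244 X chromosome SNPs, between the 2 males at 25.4% and 32.4%, and every other female was at 54.1% or more. UCP1, the uncoupling protein of brown fat, was read in every animal, and 6 of 10 brown adipocyte markers and 8 of 13 adipocyte markers had SNPs in the table. In whole tissue, fewer cells of a type and less RNA per cell cannot be told apart.

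PDK4 was selected on its allele counts in heterozygotes, so its allele shares are given as a description with no test. Its SNPs lay on chromosome 4 of the Oar v3.1 assembly and fell into 3 sets by genotype. The largest, called block A, held 14 SNPs between positions 12768805 and 12770162, a span of 1358 bases, and all 18 animals had the same call at each of them, with 6 reference homozygotes, 10 heterozygotes and 2 alternate homozygotes. Of the SNPs of block A, 13 were annotated to the 3′ UTR and 1, a C/T change at 12770162, was missense. Since the calls never differed, and a read can cover more than 1 of these SNPs, the 14 SNPs are repeated views of 1 pair of haplotypes and not 14 independent measurements. SNP B was a G/T change in the 3′ UTR at 12769405, inside the span of block A and 9 bases from the block A SNP at 12769396, yet with other calls (6 reference homozygotes, 10 heterozygotes and 2 alternate homozygotes). SNP C was a synonymous G/A change at 12781353, which is 11.2 kb beyond block A, with 10 reference homozygotes and 8 heterozygotes.

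In block A the alternate haplotype gave the larger share of PDK4 reads in most heterozygotes. At its deepest SNP, the A/G change at 12770028, the 10 heterozygotes had 1975 reference and 2609 alternate reads, and the mean alternate share was 0.589 ± 0.138 (SD, n = 10 animals). Over the 14 SNPs the mean alternate share was 0.579 to 0.642, with SDs between animals of 0.114 to 0.139. The share ran the other way at SNPs B and C. At SNP B, 1965 reference and 1039 alternate reads gave a mean reference share of 0.639 ± 0.101 (SD, n = 10), with the reference allele higher in 8 animals. At SNP C, 569 reference and 373 alternate reads gave a mean reference share of 0.619 ± 0.139 (SD, n = 8), with the reference allele higher in 6 animals.

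All 16 SNPs passed the Poisson likelihood ratio test at an unadjusted P-value under 0.05 on reads summed over heterozygotes, as did 45.0% of the 24244 SNPs in the table with a heterozygote. At the gene level, 66.0% of 5795 genes had at least 1 such SNP. Nothing is read from the PDK4 count, since these are the values PDK4 was chosen for. Across the table the reference share had a median of 0.519, and 33.4% of SNPs had more alternate than reference reads. Summed shares pool heterozygotes on either side of equality, which at block A were RS902 and RS926 against the others. The summed share at the deepest block A SNP was 0.0692 from equality, and 22.2% of SNPs were at least as far. That SNP lay toward the low end of block A, with a summed alternate share of 0.569 in a range of 0.556 to 0.616 over the 14 SNPs. For SNP B the distance was 0.154, reached by 6.63% of SNPs, and for SNP C it was 0.104, reached by 11.5%.

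The heterozygotes were not alike, and each lay on the same side of equal shares at every SNP of block A. The mean alternate share over the 14 SNPs was 0.614 in PS910, 0.629 in RS918, 0.671 in RS919 and 0.701 in RS943. It was 0.628 in RS940, 0.654 in RS969, 0.692 in RS930 and 0.736 in RS933. RS902 and RS926 lay on the other side, at 0.401 and 0.353. Thus 8 animals had more alternate than reference reads at each of the 14 SNPs, and 2 animals had fewer at each of them. Of the 140 shares, 112 lay between 0.567 and 0.788 and 28 between 0.290 and 0.445, with none in the gap between these ranges. At the deepest SNP, the counts in RS933 were 58 reference and 147 alternate reads (alternate share 0.717, 95% Wilson interval 0.652 to 0.774), and in RS926 they were 341 and 139 (0.290, 0.251 to 0.332). These intervals cover counting error only.

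**Figure D1:**
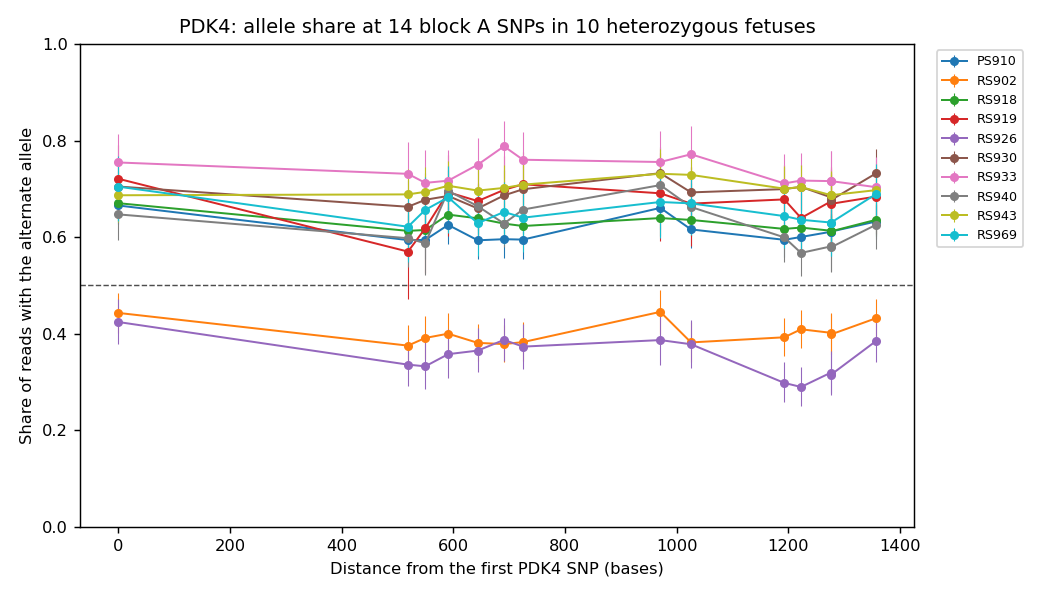
Share of reads with the alternate allele (vertical axis) at the 14 block A SNPs of PDK4 against distance from the first SNP in bases (horizontal axis), 1 line per heterozygous fetus, with 95% Wilson intervals as bars and a dashed line at 0.5. RS902 and RS926 stay at 0.445 or less along the whole span, and the other 8 animals at 0.567 or more.

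As a description of how the heterozygotes varied, the Pearson chi-square over its degrees of freedom was 20.8 to 34.2 at the SNPs of block A, 8.97 at SNP B and 9.73 at SNP C, and its median over 24106 SNPs of the table was 1.41. The measure sets the spread between animals beside counting error and grows with read depth. Within block A the SD of the 10 animal means was 0.128, whereas the SD of the 14 SNP means was 0.0204. The small differences between SNPs still recurred across animals. The alternate share at 12769776 was above the animal's own mean in 10 of 10 heterozygotes, and that at 12769324 was below it in 10 of 10. The range over the 14 SNPs within an animal was 0.0446 to 0.151.

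Homozygous calls held almost no reads of the other allele, which the calls themselves require since they were made from these reads. Over the 130 homozygous calls at the 16 SNPs, 58 of 57923 reads (0.10%) carried the other allele, with at most 5 in any call.

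Allele shares at block A are described by the combination of calls at block A, SNP B and SNP C. There were 8 combinations of calls among the 18 animals, 7 with 2 animals and 1 with 4. The 2 block A heterozygotes with more reference than alternate reads, RS902 and RS926, were the 2 that were 0/0 at both SNP B and SNP C, and their reference to alternate ratios were 1.49 and 1.83. In RS930 and RS933, heterozygous at block A and SNP C but 0/0 at SNP B, the ratio of alternate to reference reads was 2.25 and 2.79. In the 4 animals heterozygous at block A and SNP B but 0/0 at SNP C, it was 1.59 to 2.35. In RS940 and RS969, heterozygous at all 3, it was 1.69 and 1.89. These 2 values and that of RS930 lay within the range of the 4 animals, and that of RS933 lay above it. Only RS902 and RS926 stood on the other side of equal shares. The calls held no sign that a copy of the gene carried the alternate alleles of block A and of SNP B or C at once. No animal had more than 2 alternate alleles when block A and SNP B were added up, or block A and SNP C, both block A 1/1 animals were 0/0 at SNPs B and C, and both SNP B 1/1 animals were 0/0 at block A. Phase itself was not observed, but for block A and SNP B it can be deduced from the shared sire, as given below.

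The shares at SNPs B and C are given by the call at block A, as a description. In an animal also heterozygous at block A, the share at SNP B or C reads the same 2 copies again. With the shared sire, right calls and no recombination, the alternate alleles of block A and SNP B lay on opposite copies in all 6 such animals. Their shares at SNP B then restate those of block A. If SNP C did not recombine either, the same holds at SNP C for RS930 and RS933, but RS940 and RS969 are not settled. RS903, RS937, RS940 and RS969 were heterozygous at both SNPs B and C. At SNP B, the alternate share in animals that were also heterozygous at block A was 0.254 in RS919, 0.259 in RS943, 0.285 in RS969, 0.287 in RS940, 0.323 in RS918 and 0.347 in PS910, a mean of 0.293 ± 0.0364 (SD, n = 6). In SNP B heterozygotes that were 0/0 at block A it was 0.395 in RS920, 0.408 in RS953, 0.524 in RS937 and 0.527 in RS903, a mean of 0.464 ± 0.0721 (SD, n = 4). The shares of the groups did not overlap, but Wilson intervals did, as in PS910 (0.311 to 0.386) and RS920 (0.331 to 0.463). At SNP C, the alternate share with block A heterozygous was 0.217 in RS933, 0.230 in RS930, 0.284 in RS969 and 0.310 in RS940, a mean of 0.260 ± 0.0442 (SD, n = 4). With block A 0/0 it was 0.441 in RS903, 0.453 in RS937, 0.543 in RS947 and 0.570 in RS929, a mean of 0.502 ± 0.0647 (SD, n = 4). The shares of these groups did not overlap either, and without RS929 the latter still ran from 0.441 to 0.543. Their Wilson intervals again did, as in RS940 (0.243 to 0.386) and RS903 (0.322 to 0.567). In the animals without the alternate haplotype of block A, 2 of 4 shares at each SNP lay above 0.5 and 2 below it. Most of these shares were not clear of 0.5 by counting error. At SNP C all 4 Wilson intervals included it (RS903 0.322 to 0.567, RS937 0.372 to 0.536, RS947 0.466 to 0.618, RS929 0.486 to 0.651). At SNP B those of RS903, RS937 and RS953 included it, and that of RS920 (0.331 to 0.463) did not.

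**Figure D2:**
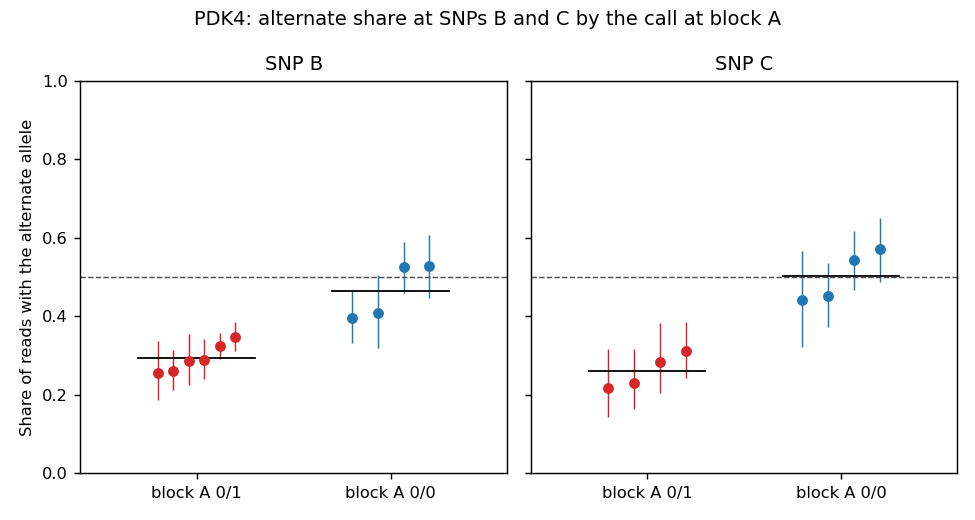
Share of reads with the alternate allele (vertical axis) at SNP B (left) and SNP C (right) in each heterozygous fetus, split by its call at block A (horizontal axis), with 95% Wilson intervals, the group mean as a line and 0.5 dashed. Shares with block A heterozygous reach at most 0.347 and 0.310, and those with block A 0/0 start at 0.395 and 0.441.

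With the same sire for all fetuses, some calls allow the parent of an allele to be deduced, provided that the genotype calls were right and that block A and SNP B did not recombine. Block A and SNP B each had fetuses of both homozygous classes, so the sire had to be heterozygous at both, and every fetus carried at least 1 alternate allele of block A or SNP B. RS905 and RS917, 1/1 at block A and 0/0 at SNP B, received a sire copy that was alternate at block A alone. RS929 and RS947, 0/0 at block A and 1/1 at SNP B, received a sire copy that was alternate at SNP B alone. Under the provisos above, the alternate allele was therefore paternal in the 8 animals heterozygous at only 1 of the 2. The share of reads from that allele was 0.401 in RS902, 0.353 in RS926, 0.692 in RS930 and 0.736 in RS933 at block A. At SNP B it was 0.395 in RS920, 0.408 in RS953, 0.524 in RS937 and 0.527 in RS903. By its share alone, the deduced paternal allele was thus the higher in 4 animals and the lower in 4, over a range from 0.353 to 0.736. At SNP B the Wilson intervals of RS903 (0.447 to 0.607), RS937 (0.459 to 0.589) and RS953 (0.318 to 0.504) included equal shares. Counting error therefore leaves the side of these animals unsettled, and a dependence on the parent was not tested. In the 6 animals heterozygous at both, the parent could not be deduced from block A and SNP B alone. If SNP C did not recombine either, both sire haplotypes carried its reference allele, since RS902, RS926, RS920 and RS953 were reference homozygotes there. The block A alternate allele was then paternal in RS940 and RS969 (0.628 and 0.654), if never on a copy with alternate SNP C.

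The level of PDK4 transcripts, which was not used to choose the gene, varied strongly between fetuses. It was taken as the reads over all 16 SNPs divided by the reads counted over all SNPs in that animal and scaled to RPM (reads per 1000000 reads), a unit that depends on how many SNPs a gene has and so serves to compare animals, not genes. The level was 411 RPM in RS953 at the lowest, 1110 at the median and 5477 in RS905 at the highest, 13.3 times the lowest, and the second highest was 3126 in RS918. The SD of the log2 level over the 18 animals was 1.00, compared with a median of 0.219 over 5810 genes, and 17 genes (0.293%) had a larger SD.

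By the call at block A, the median level was higher with each alternate allele, with wide overlap. In the 6 reference homozygotes it was 411 in RS953, 567 in RS903, 834 in RS937, 850 in RS920, 1077 in RS929 and 1553 in RS947. In the 10 heterozygotes it ranged from 443 in RS919 to 3126 in RS918, with a median of 1191. The 2 alternate homozygotes were at 1656 (RS917) and 5477 (RS905). Both were above every reference homozygote, but RS917 lay inside the range of the heterozygotes. In a fit of all 5810 genes with edgeR's quasi-likelihood test, the PDK4 level was higher by 0.96 on the log2 scale per alternate allele of block A (SE 0.26, n = 18, unadjusted P-value 0.00143). After Benjamini-Hochberg adjustment over all genes the edgeR P-value was 0.702, so PDK4 did not pass, and neither did any other gene (0.0% of 5810), although 350 genes (6.02%) had an unadjusted P-value under 0.05 and PDK4 was the tenth smallest. DESeq2 called 1 gene, which was not PDK4 (adjusted P-value 0.523). Pearson's r between the dosage and the log2 level was 0.543 (permutation test, two-sided, P = 0.0195) and Spearman's rho was 0.519 (permutation P = 0.0292). With 3 such relations tested, 1 for each set of SNPs, the adjusted permutation P-value for r was 0.0585. The relation rested on RS905. Without it the edgeR difference was 0.62 per allele (unadjusted P-value 0.0633) and r was 0.386 (permutation P = 0.126), and without RS903 and RS905, 2 of the 8 animals equally far from the median dosage, r was 0.328 (permutation P = 0.215).

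**Figure D3:**
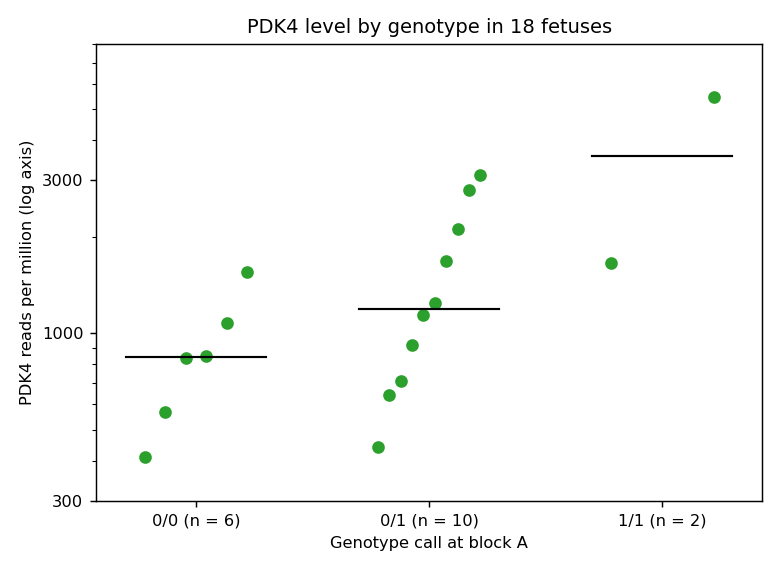
PDK4 level in RPM on a log axis (vertical) by genotype call at block A (horizontal), 1 point per fetus and a line at each median. The 0/0 animals span 411 to 1553, the 0/1 animals 443 to 3126, and the 1/1 animals stand at 1656 and 5477.

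The other SNPs gave differences of the opposite sign that did not pass either. For SNP B the edgeR difference was −0.55 log2 per alternate allele (SE 0.31, adjusted P-value 0.869). No gene passed in that fit (0.0% of 5810), with 325 genes at an unadjusted P-value under 0.05 and none called by DESeq2. The sign for SNP B turned to +0.43 (SE 0.37) when the dosages of block A and SNP C were in the same model. For SNP C the edgeR difference was −1.12 (SE 0.40, unadjusted P-value 0.0101, adjusted P-value 0.914), in a fit where 1 other gene passed (0.0172% of 5810), and it was −0.58 with block A and SNP B in the model. The permutation P-values of r were 0.261 for SNP B (r = −0.279, rho = −0.287 with P = 0.249, r without RS902 and RS905 −0.00772) and 0.117 for SNP C (r = −0.382, rho = −0.409 with P = 0.102, r without RS903 and RS929 −0.335). Each gene's level was also regressed on the dosage of each of its own SNPs, with variances moderated by limma. This called 860 of 22086 SNPs (3.89%), and none of the 16 PDK4 SNPs. The block A SNPs, which share 1 dosage, had a slope of 0.84 log2 per allele (SE 0.29, limma adjusted P-value 0.116).

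Split by allele, reads from both copies of PDK4 varied between animals. At the deepest block A SNP, the alternate copy of the heterozygotes gave 23.9 (RS919) to 151 (RS918) RPM with a median of 53.8. The reference copy gave 13.4 (RS919) to 118 (RS902) with a median of 34.1. The range between animals was wider for either copy than the gap between the copies of any animal. Per copy, the 6 reference homozygotes had 16.5 to 59.2 RPM with a median of 33.6. The alternate homozygotes had 64.5 in RS917 and 204 in RS905, and RS905 was therefore above every copy in a heterozygote. Across the 10 heterozygotes, the highest alternate copy was 6.31 times the lowest, and the highest reference copy 8.79 times the lowest.

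**Figure D4:**
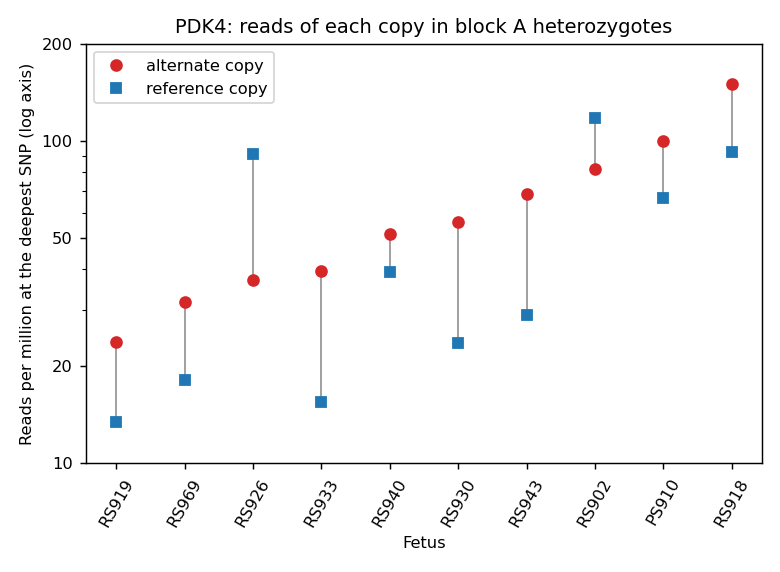
RPM (log axis, vertical) of the alternate and the reference copy of PDK4 at the deepest block A SNP in each heterozygous fetus (horizontal), joined within an animal and ordered by the alternate copy. The alternate copy runs from 23.9 to 151 and the reference copy from 13.4 to 118, and the reference copy is the higher in RS926 and RS902.

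Genes whose level across the 18 fetuses followed that of PDK4 most closely are given by Spearman's rho, as a description over libraries that also share their depth and tissue make-up. Over the other 5809 genes the median rho with PDK4 was −0.0795, 69 genes had a rho of at least 0.6 and 103 of at most −0.6. The 5 most alike were RHBG (rho 0.858), an ammonium transporter, ATL2 (0.837), an atlastin that shapes the endoplasmic reticulum, FARSB (0.804), a subunit of phenylalanyl-tRNA synthetase, EFTUD1 (0.756), a ribosome maturation GTPase, and ODC1 (0.754), the first enzyme of polyamine synthesis. RHBG ranged from 162 to 659 RPM. The 5 most opposed were HOMER3 (−0.827), a scaffold protein, MID1IP1 (−0.822), an activator of acetyl-CoA carboxylase and so of fatty acid synthesis, GULP1 (−0.816), an engulfment adaptor, ARHGEF1 (−0.746) and POSTN (−0.744), the matrix protein periostin. Without RS905 these 10 values lay between 0.711 and 0.846 and between −0.797 and −0.699. All 8 fibroblast and stroma markers with SNPs, COL1A1 and COL3A1 among them, had a negative rho (−0.598 to −0.137), as did 60.5% of all genes, and their summed level of 9239 to 25237 RPM had a rho of −0.540 with PDK4. The summed brown adipocyte markers (7958 to 20911 RPM, highest in RS905) had a rho of 0.329, but that sum is mostly UCP1 (0.344), and 2 of the 6 markers were positive, with a median of −0.0279 and ELOVL6 at −0.534. The summed adipocyte markers, mostly ADIPOQ, had −0.276, with members from −0.622 (PLIN4) to 0.626 (AQP7). For the summed endothelial markers (8 of 11 with SNPs) rho was −0.189, for smooth muscle and pericyte markers (4 of 9) −0.352, and for macrophage and leukocyte markers (6 of 11) −0.201. Of 10 adrenal markers 1 had SNPs, with 30.5 to 58.2 RPM and a rho of −0.0898. Skeletal muscle, blood and kidney markers had no SNPs. The part of tissue make-up in the likeness was not tested.

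The genes of PDK4's own pathway are set beside all genes, of which 1.19% had a rho of at least 0.6 and 1.77% of at most −0.6, with an upper quartile of 0.129. Of 22 genes of the PDH complex and its regulators, 10 had SNPs, and the other pyruvate dehydrogenase kinases (PDK1, PDK2, PDK3) and the E1 and E2 subunits (PDHA1, PDHB, DLAT) had none. Their median rho with PDK4 was 0.0320, and that of their summed level, mostly LDHB, was 0.643. The phosphatases that reverse the kinase reaction were at −0.131 (PDP1) and 0.383 (PDP2), their regulatory subunit PDPR at −0.294, and the subunits PDHX and DLD at 0.0774 and −0.170. LDHB, the lactate dehydrogenase subunit that favours pyruvate formation, was the only one of the 10 at 0.6 or more (0.649, and 0.586 without RS905). Of 25 fatty acid oxidation genes 17 had SNPs, with a median rho of 0.189 and a rho of 0.496 for their summed level, and HADHB, a subunit of the mitochondrial trifunctional protein, stood highest at 0.647. CPT1A, the entry step of fatty acids into mitochondria, was at −0.115.

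Genes known to control PDK4, and other genes that respond to fasting, also lay on both sides of 0. Of 30 regulators 17 had SNPs, with a median rho of −0.0402 (0.362 for the summed level). LPIN1, a phosphatidate phosphatase and PPAR coactivator, had 0.738, and AKT2, a kinase of insulin signalling, had −0.736. All 18 animals were called heterozygous at an AKT2 SNP with a reference share of 0.168, and what this means for the AKT2 level was not tested. PPARA, PPARGC1A and FOXO1 had 0.179, −0.0402 and −0.321. Of 30 fasting and PPAR target genes 14 had SNPs, with a median rho of 0.231 (0.160 for the summed level), and KLF9, a glucocorticoid-induced transcription factor, was the only one at 0.6 or more (0.713). By dosage of block A, no gene of these 4 lists passed the edgeR test after adjustment, and LPIN1 (0.37 log2 per allele) and PPARD (0.32) were the 2 of their 54 genes with SNPs that had an unadjusted edgeR P-value under 0.05 (0.00408 and 0.00507), beside 6.02% of all genes. The 5 genes other than PDK4 with the smallest edgeR P-values in that fit were MORC3 (−0.36), EGR1 (+0.83), SEPSECS (−0.51), SVEP1 (−0.30) and SCRN1 (−0.38 log2 per allele), each with an adjusted P-value of 0.60.

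**Figure D5:**
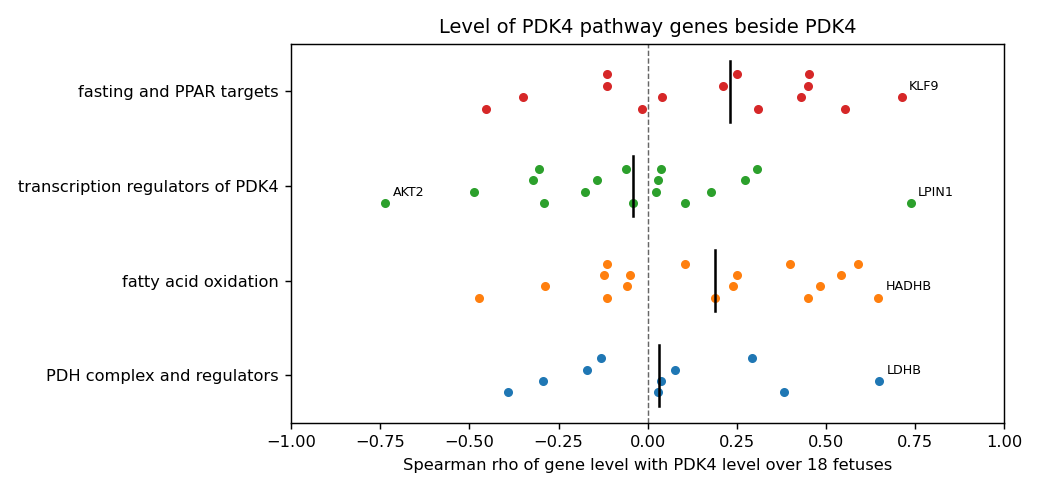
Spearman's rho of each gene's level with the PDK4 level over 18 fetuses (horizontal axis) for the genes with SNPs in 4 lists (vertical axis), 1 point per gene and a black line at each list's median. The medians lie between −0.0402 and 0.231, and the 5 named genes are those at 0.6 or beyond in either direction.

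In all, 3 other genes had SNPs within 1000000 bases of those of PDK4. PON2, a paraoxonase gene 255 kb away and adjacent to PDK4 in the RefSeq gene order of the ARS-UI_Ramb_v3.0 annotation, had both of its SNPs past the unadjusted threshold that 45.0% of SNPs passed. At position 12513966 the reference share was 0.623 ± 0.0642 (SD, n = 12), with the reference allele higher in 12 of 12 heterozygotes (Poisson likelihood ratio test on summed reads, adjusted P-value 3.0e-35, which covers counting error only). Its calls matched those of block A in at most 12 of 18 animals. By dosage of block A the PON2 level was lower by 0.23 log2 per allele, with an unadjusted edgeR P-value of 0.00241 and an adjusted one of 0.702. CASD1, 964 kb away, and SLC25A13, the mitochondrial aspartate-glutamate carrier 624 kb away, each had 1 of 4 SNPs past the unadjusted threshold.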

How the data were processed

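Total RNA of each PRAT sample was made into TruSeq libraries and sequenced as paired reads. The authors aligned the reads to Oar v3.1 with STAR, called SNPs and genotypes from these reads with the GATK UnifiedGenotyper, and kept SNPs inside genes with 10 or more reads of both alleles in at least 5 animals. The deposited values are raw counts of reads per allele, SNP and animal, without normalization. Reads were not counted by strand in any source used here, alleles unlike the reference can be lost in alignment, and the flow cell of an animal is not given in the sources used here. Nothing says that libraries were repeated, so n is the number of fetuses.

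PDK4 and all gene lists were chosen with earlier results of these data known. Shares were means over 0/1 animals with SDs and 95% Wilson intervals. Gene level was the sum of both alleles over a gene's SNPs, which counts a read covering several SNPs more than once. It was fitted on alternate allele dosage with edgeR 4.0.16 (R 4.3.3; TMM, filterByExpr, which removed no gene, quasi-likelihood test, Benjamini-Hochberg adjustment). Alternatives were DESeq2 1.42.0, other scaling, the deepest SNP, further covariates and leaving out each animal. The regression on own SNPs used limma 3.58.1 with at least 3 animals in at least 2 genotype classes and log2 of RPM plus 1. Correlations used 100000 permutations (scipy 1.17.1). Poisson likelihood ratios were taken as 2 times the log ratio against an expected share of 0.5. Scripts were tested on simulated data. Genes were named by rule: the 5 with the highest and lowest rho with PDK4, the 5 with the smallest P-value in the block A fit, all within 1000000 bases, the PDH kinases, phosphatases and subunits, and list members with an absolute rho of at least 0.6. CPT1A, PPARA, PPARGC1A, FOXO1 and PPARD, and the marker genes UCP1, ADIPOQ, ELOVL6, PLIN4, AQP7, COL1A1 and COL3A1, fall outside it and were chosen after their values were seen. Adjacent genes were taken from RefSeq gene order, without coordinates.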

Additional observations from a re-analysis of the deposited data

How the results depend on the processing

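At each of the 16 SNPs, the 206 values under other settings (summed reads, 10 reads of each allele, odds corrected by the median reference share, each heterozygote left out) stayed within 1 SD of the mean share, and the largest shift was 0.0346. The difference per alternate allele of block A stayed positive and short of significance in 7 other settings (0.75 to 1.06, edgeR or DESeq2 adjusted P-values 0.523 to 0.881) and without each animal (0.62 to 1.12). The setting without both alternate homozygotes was chosen after seeing the data and gave 0.75 (r = 0.348, permutation P = 0.185). Without single animals r was 0.386 to 0.615 for block A, −0.371 to −0.143 for SNP B and −0.514 to −0.323 for SNP C, where leaving out RS919 or RS953 brought the permutation P-value under 0.05 (lowest 0.0351). For SNP B the edgeR difference reversed to 0.43 with the other dosages in the model, and the cause was not tested. Without single animals it was −0.76 to −0.20 for SNP B (−0.20 without RS905), and −1.27 to −0.78 for SNP C. Without RS929 the difference for block A kept its sign. No paired analysis was possible because all samples form 1 group, so no replicate numbers pair groups, and the 2 alleles within an animal were compared as a description. There were 2 alternate homozygotes, and depth was 84 to 1875 reads per animal at the SNPs of block A.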

Other observations

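The counts of genes with imbalance at 1 SNP or more (unadjusted P-value under 0.05, Poisson likelihood ratio test on summed reads) were 6 of 10 in the PDH list, 15 of 17 in the fatty acid oxidation list, 12 of 17 among the regulators and 14 of 14 among the fasting and PPAR targets, beside 66.0% of all genes. A gene with many SNPs has more chances to be counted. PC, pyruvate carboxylase, which uses the pyruvate that PDH does not, had 7 of 8 SNPs past that threshold and a median reference share of 0.394. CPT1B, the muscle form of carnitine palmitoyltransferase, had a reference share of 0.882 at its only SNP, over 8 heterozygotes. At AKT2, the regulator with the lowest rho with PDK4, the median reference share over 6 SNPs was 0.167, and all 18 animals were called heterozygous at the SNP with the smallest P-value. These genes were picked after their values were seen.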
